A study of Homo sapiens with 8 samples.

Results

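The RAB GTPase genes are described here in A673, an established Ewing Sarcoma cell line, after exposure to JIB-04, a small molecule that inhibits Jumonji-domain histone demethylases. Genes were taken by symbol: RAB, a number and at most 1 letter from A to F. Of 65962 genes in the expression table, 63 carried such a symbol, each with a single gene identifier. Messenger RNA was sequenced in 8 libraries, 4 from A673 cells given 2 μM JIB-04 and 4 from A673 cells given vehicle (DMSO), all harvested at 36 hours. Both groups were the same line in the same medium, so a single tumor line is described. Per the study's methods the treatments were done in quadruplicate. Beyond that, nothing is said of how separate the 4 cultures of a group were in time or passage. The p-values rest on the spread between these libraries only, which the fit shared between genes.

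RAB proteins are small GTPases that mark membranes. A RAB is carried to the membrane by escort and GDI proteins, is loaded with GTP there by an exchange factor, recruits effectors that tether, move or remodel vesicles, and is switched off by a GTPase-activating protein, most often one with a TBC domain. Different RABs mark different stations. RAB5 proteins act at early endosomes, RAB4 and RAB11 proteins in recycling to the cell surface, RAB7 proteins at late endosomes and lysosomes, RAB1 and RAB2 proteins between the endoplasmic reticulum and the Golgi, and RAB3, RAB8 and RAB27 proteins in transport to and fusion with the plasma membrane. By these known roles the 63 genes were placed in 4 classes, with 16 endosomal, 11 lysosomal (late endosomes, lysosomes, lysosome-related organelles and autophagosomes), 29 secretory (endoplasmic reticulum, Golgi and exocytosis) and 7 other genes. Some RABs act at more than 1 station, and each gene was counted in 1 class only. RAB1C, annotated as a processed pseudogene, was counted with the secretory genes.

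Coordinates are those of GRCh38 in GENCODE release 29 where no other source is named. Levels are FPKM as the authors deposited them, that is, reads of a gene scaled by the length of its exons and by the reads mapped in the library. Summed over all genes, FPKM came to 1175407 to 1237186 in the JIB-04 libraries and to 1346289 to 1370436 in the vehicle libraries, and transcripts of the mitochondrial genome made up 4.59% to 5.54% of that sum with JIB-04 and 9.99% to 10.6% with vehicle. The steps between the lowest FPKM put the relative depth at 0.767 to 0.928 of vehicle replicate 1 for the JIB-04 libraries and at 0.825 to 0.951 of it for the other 3 vehicle libraries. Correlations of log2(FPKM + 0.5) were 0.977 to 0.985 within groups and 0.879 to 0.905 between them. All 7 markers of Ewing Sarcoma measured (CD99, NKX2-2, NR0B1, STEAP1, PRKCB, LIPI and FLI1) were expressed, with a summed level of 1276 to 1366 FPKM with JIB-04 and 1919 to 1988 FPKM with vehicle. Most of that difference was CD99, and without it the other 6 summed to 710.3 to 750 FPKM with JIB-04 and 784 to 827 FPKM with vehicle. Of the 7, LIPI and FLI1 were called higher, 4 were called lower and NR0B1 did not pass. Of 8 markers of other cell types, 6 stayed under a mean of 1 FPKM in both groups, and ALB, CDH1 and MYOD1 were listed at 0 in every vehicle library. The summed level of the 8 was 42.6 to 52.4 FPKM with JIB-04 and 12.7 to 16.1 FPKM with vehicle, most of it COL1A1, a collagen chain, and without COL1A1 it was 1.57 to 2.62 FPKM with JIB-04 and 0.855 to 1.13 FPKM with vehicle. The part of these differences in the RAB values was not tested.

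RAB genes changed in both directions with JIB-04, and more of them rose than fell. The share called was somewhat above that of all genes. The share changed at least 2-fold, both directions together, was near that of all genes, and these shares were not tested against each other. The 49 RAB genes that averaged at least 1 FPKM across the libraries were tested on log2(FPKM + 0.5) by limma, in 1 fit of all 17460 such genes, and a gene was called where its p, adjusted by Benjamini and Hochberg over all of them, was under 0.05. Fold changes are JIB-04 over vehicle with their standard errors (SE), and on this scale the change of a gene at a low level comes out too small. Of the 49, 40 were called, against 72.2% of all genes tested, with 24 higher (34.2% of all genes tested) and 16 lower (38.0% of all genes tested). At least 2-fold, 12 were called (24.9% of all genes tested), of which 9 were higher (13.1% of all genes tested) and 3 lower (11.8% of all genes tested). The median log2 fold change was 0.27 over the 49, against -0.066 over all genes tested. The JIB-04 and vehicle libraries did not overlap for 37 of the 49, against 67.3% of all genes tested. Such a gene has an exact two-sided permutation p of 0.0286, the smallest that 4 samples against 4 allow. RAB7B passed the expression minimum only through its JIB-04 level, and RAB33A and RAB32 only through their vehicle levels, so their groups had to differ. Without these 3 genes, 23 rose (50%), 14 fell (30.4%) and 9 did not pass, against 32.9% higher and 38.9% lower of the 16000 genes at the minimum in both groups. The share called was 80.4% for these RAB genes and 71.8% for the 16000 genes. The counts at least 2-fold and without overlap were not redone in this way. Both still include RAB7B, among the 9 higher, and RAB33A, among the 3 lower, whose difference the minimum had set in advance. When FPKM were rescaled to TPM, which gives each library the same sum, the median of all genes moved up by 0.15, and 29 RAB genes were higher (40.4% of all genes tested) and 13 lower (31.1% of all genes tested). In bulk RNA, fewer cells with a transcript and less of it per cell cannot be told apart.

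**Figure D1:**
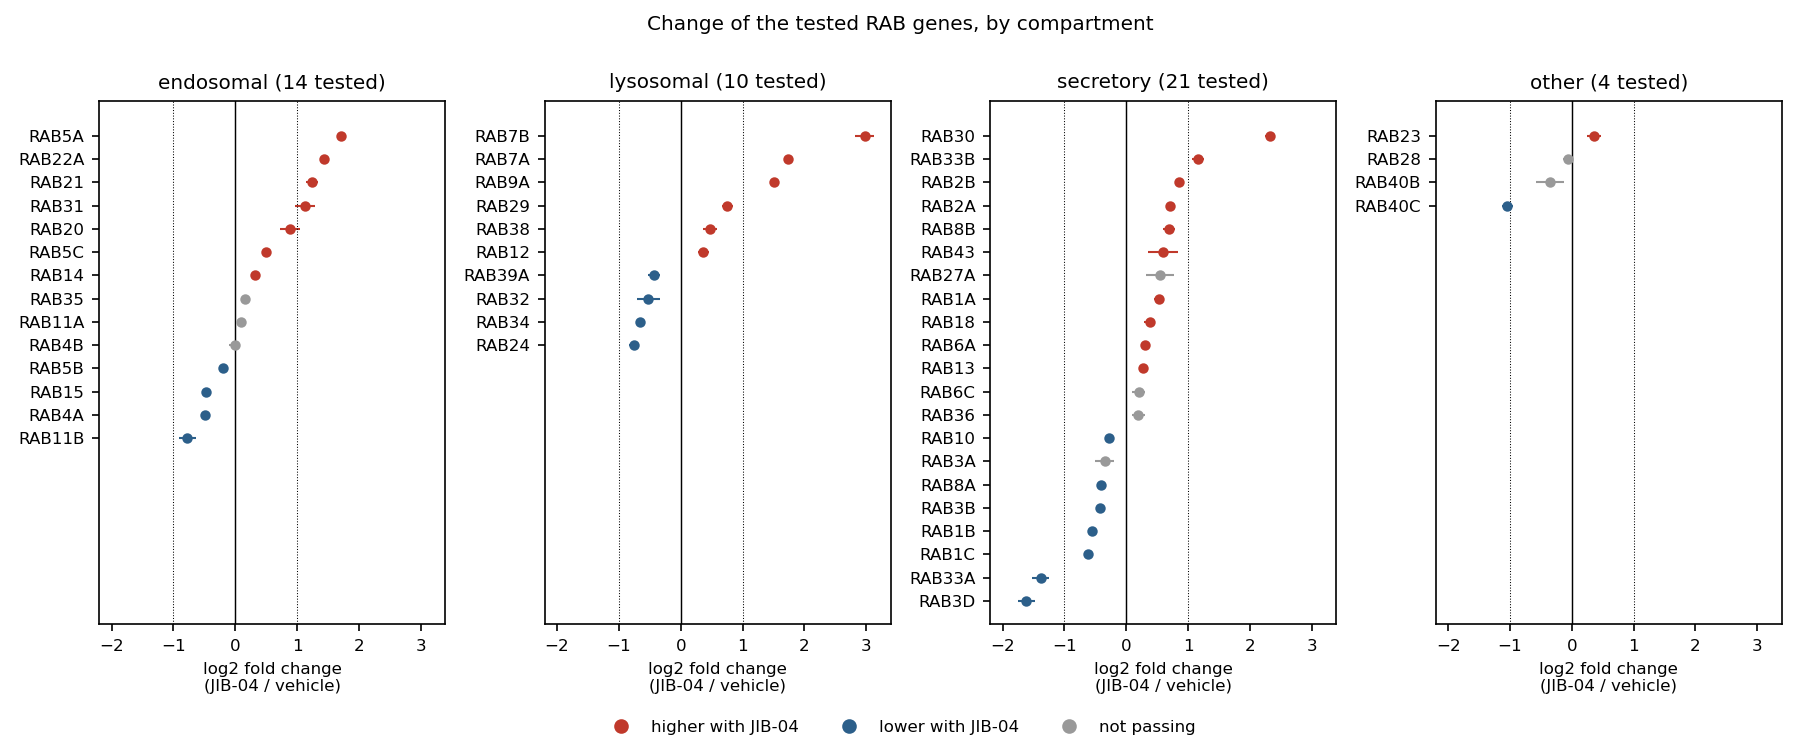
Log2 fold change (JIB-04 over vehicle, on log2(FPKM + 0.5); horizontal axis) of the 49 tested RAB genes in 4 panels by compartment, with bars of 1 standard error, red for higher, blue for lower and grey for not passing. Each panel holds genes on both sides of 0, with RAB7B at 2.98 farthest to the right and RAB3D at -1.62 farthest to the left, and the dotted lines mark 2-fold.

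The class with the largest summed rise was the lysosomal one, and most of that rise was RAB7A. The 11 lysosomal RABs summed to 1256, 1266, 1193 and 1194 FPKM with JIB-04, against 595, 596, 609 and 581 FPKM with vehicle, a ratio of the means of 2.06. RAB7A alone made up 24.2% ± 0.921 of the summed RAB FPKM with JIB-04 and 10.0% ± 0.447 with vehicle (SD, n = 4 each). Without it the lysosomal sum was 347 ± 8.42 FPKM with JIB-04 and 331 ± 9.70 FPKM with vehicle, a ratio of 1.05. Endosomal RABs summed to 1068, 1065, 1045 and 1057 FPKM with JIB-04, against 830, 873, 826 and 859 FPKM with vehicle, a ratio of 1.25. Secretory RABs summed to 1316, 1294, 1322 and 1306 FPKM with JIB-04, against 1125, 1162, 1153 and 1191 FPKM with vehicle, a ratio of 1.13. The pseudogene RAB1C is part of the secretory sums, with a mean of 54.83 FPKM with JIB-04 and 84.45 FPKM with vehicle. All JIB-04 sums of these 3 classes lay above all vehicle sums. The 7 other RABs summed to 42.0 ± 2.55 FPKM with JIB-04 and 47.8 ± 2.90 FPKM with vehicle. These sums are described and were not tested, and for all 63 genes together they were 3637 ± 42.2 FPKM with JIB-04 and 2648 ± 39.0 FPKM with vehicle.

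**Figure D2:**
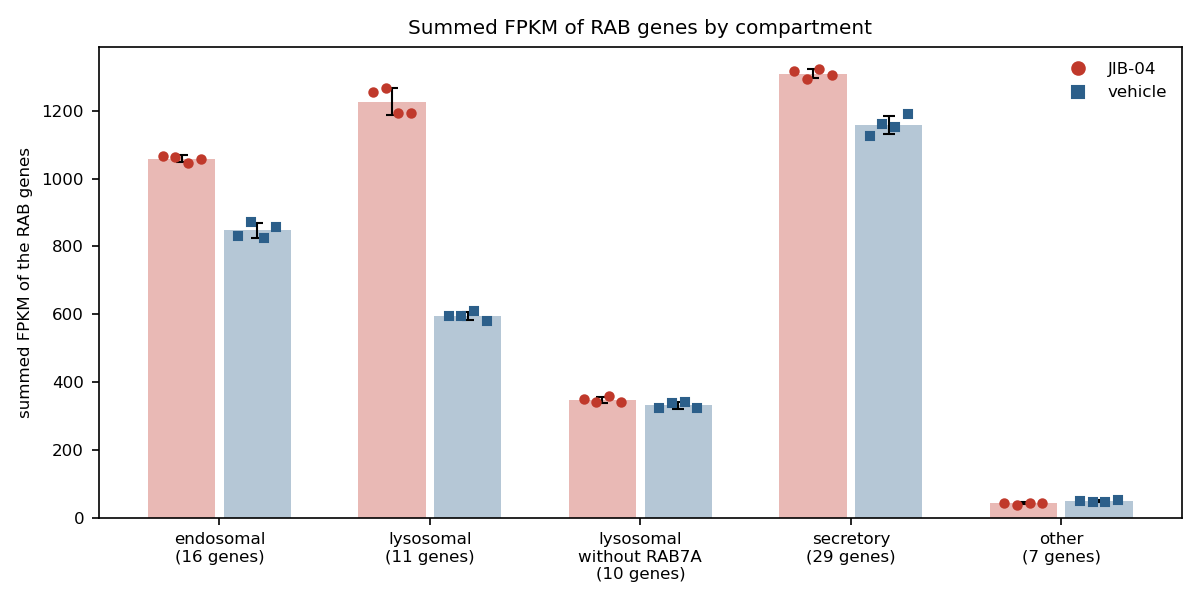
Summed FPKM (vertical axis) of the RAB genes of each class in each library, JIB-04 as red circles and vehicle as blue squares, with bars at the mean and whiskers of 1 SD (n = 4 libraries per group). The lysosomal sum was 1227 with JIB-04 and 595 with vehicle, and 347 and 331 in the same order without RAB7A.

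With JIB-04, RAB7A ranked 1 among the 63 RAB genes by mean FPKM, and with vehicle it ranked 2, after RAB11A. RAB11A, the RAB of the recycling endosome, ranked 2 with JIB-04. RAB34 ranked 8 with JIB-04 and 3 with vehicle, RAB1B ranked 7 with JIB-04 and 4 with vehicle, and RAB9A and RAB5A ranked 9 and 10 with JIB-04 and 19 and 20 with vehicle. RAB30 ranked 18 with JIB-04 and 30 with vehicle. These ranks compare genes by FPKM, which is per length of transcript.

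Of the 8 lysosomal RABs at the minimum in both groups, 5 rose and 3 fell, with a median log2 fold change of 0.42, and 71.8% of all such genes were called. RAB7B and RAB32, which passed the minimum through 1 group only, are described with them but not counted. RAB7A (ENSG00000075785, chr3:128726122-128814796), which directs the maturation of late endosomes and their fusion with lysosomes, had 907, 924, 835 and 854 FPKM with JIB-04, against 273, 257, 269.8 and 258 FPKM with vehicle (log2 fold change 1.73, SE 0.043, adjusted p = 3.17e-09 by limma). The JIB-04 libraries were all more than 3-fold above the vehicle libraries, with no overlap. RAB7B (ENSG00000276600, chr1:205976740-206003461), a relative that acts between lysosomes and the trans-Golgi, had 8.75, 9.09, 6.36 and 10.1 FPKM with JIB-04, against 0.730, 0.583, 0.516 and 0.735 FPKM with vehicle (log2 fold change 2.98, SE 0.15, adjusted p = 1.82e-07 by limma). Its libraries did not overlap, it was under 1 FPKM in every vehicle library, and JIB-04 replicate 3 was the lowest of the treated ones. RAB9A (ENSG00000123595, chrX:13689125-13710506), which returns mannose 6-phosphate receptors from late endosomes to the Golgi, had 137, 131, 132 and 131 FPKM with JIB-04, against 41.5, 44.9, 50.2 and 48.7 FPKM with vehicle (log2 fold change 1.51, SE 0.062, adjusted p = 4.65e-08 by limma). The groups were far apart, and JIB-04 replicate 1 stood above the other 3, which were within 1 FPKM of each other.

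The other lysosomal RABs that rose did so by less. RAB29, which recruits the kinase LRRK2 to membranes, had 16.3 ± 0.928 FPKM with JIB-04 and 9.51 ± 1.03 FPKM with vehicle (SD, n = 4 each; log2 fold change 0.75). RAB38, of melanosomes and other lysosome-related organelles, and RAB12, which directs transferrin receptors to degradation, had log2 fold changes of 0.47 and 0.37. Called lower were RAB34, RAB24, RAB39A and RAB32. RAB34, which positions lysosomes and takes part in building cilia, was the lysosomal RAB next in level to RAB7A, with 131, 136, 144 and 128 FPKM with JIB-04, against 205, 223, 218 and 202 FPKM with vehicle (log2 fold change -0.65, SE 0.051, adjusted p = 2.68e-06 by limma). All 4 JIB-04 libraries were below all 4 vehicle libraries. RAB24, a RAB of autophagy, had a log2 fold change of -0.76 and RAB39A, of late endosomes and phagosomes, one of -0.44. RAB32, a relative of RAB38, had 1.17, 0.883, 0.906 and 0.568 FPKM with JIB-04, against 1.69, 1.59, 1.60 and 1.04 FPKM with vehicle, with overlap between the groups (log2 fold change -0.52, SE 0.19, adjusted p = 0.0328 by limma). Its call was lost under TPM (adjusted p = 0.0766), with no expression minimum (adjusted p = 0.0900) and when JIB-04 replicate 2 or 4 or vehicle replicate 1, 2 or 3 was left out (adjusted p = 0.0521 to 0.0773).

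Of 14 tested endosomal RABs, 7 rose, 4 fell and 3 did not pass, with a median log2 fold change of 0.24. Of all genes tested, 34.2% were higher and 38.0% lower. Under TPM 9 of the 14 rose, 3 fell and 2 did not pass, against 40.4% higher and 31.1% lower of all genes tested. RAB5A (ENSG00000144566, chr3:19947079-19985175), which governs the fusion of early endosomes, had 120.3, 124, 137 and 128 FPKM with JIB-04, against 34.8, 37.6, 36.8 and 44.8 FPKM with vehicle (log2 fold change 1.72, SE 0.080, adjusted p = 9.55e-08 by limma). The lowest JIB-04 library was more than 2-fold above the highest vehicle library. RAB22A (ENSG00000124209, chr20:58309696-58367507), which acts beside RAB5 at early endosomes and in recycling, had 16.6, 17.4, 17.8 and 17.9 FPKM with JIB-04, against 5.91, 6.25, 6.16 and 6.22 FPKM with vehicle (log2 fold change 1.43, SE 0.061, adjusted p = 5.84e-08 by limma). RAB21 (ENSG00000080371, chr12:71754874-71800285), which carries integrins through early endosomes, had 107, 119, 131 and 121 FPKM with JIB-04, against 44.1, 49.3, 49.1 and 59.0 FPKM with vehicle (log2 fold change 1.24, SE 0.093, adjusted p = 1.89e-06 by limma). Neither gene had an overlap between the groups, and the libraries of RAB22A were close together within each group. RAB31 (ENSG00000168461, chr18:9708165-9862551), of traffic between the trans-Golgi and endosomes, had 4.85, 7.32, 4.87 and 4.40 FPKM with JIB-04, against 1.88, 2.59, 1.93 and 2.16 FPKM with vehicle (log2 fold change 1.13, SE 0.16, adjusted p = 0.000179 by limma). JIB-04 replicate 2 was the highest, and the remaining JIB-04 libraries were above every vehicle library too. Without that replicate the log2 fold change of RAB31 was under 1.

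RAB5C, the endosomal RAB next in level to RAB11A, had 174, 181, 161 and 167 FPKM with JIB-04, against 125, 118, 123 and 118 FPKM with vehicle (log2 fold change 0.49, SE 0.046, adjusted p = 8.68e-06 by limma), without overlap. RAB20 and RAB14, a RAB of traffic between Golgi and endosomes, also rose, with log2 fold changes of 0.89 and 0.32. RAB11A itself had 316, 299, 298 and 301 FPKM with JIB-04, against 259.5, 306, 277 and 292 FPKM with vehicle (log2 fold change 0.10, SE 0.053, adjusted p = 0.121 by limma), and the groups overlapped. Under TPM its log2 fold change was 0.26 and passed the test (adjusted p = 0.000999). RAB35, of fast recycling, and RAB4B did not pass either, at 0.16 and -0.0099, and RAB35 passed as higher under TPM (adjusted p = 0.0016). The direction of RAB4B changed with the setting, and it was at 0.14 under TPM, at 0.047 with median-ratio scaling, at 0.016 without vehicle replicate 2 and at 0.043 without JIB-04 replicate 3. RAB11B, the near relative of RAB11A, had 52.2, 51.6, 32.7 and 39.7 FPKM with JIB-04, against 81.0, 67.9, 72.2 and 76.3 FPKM with vehicle (log2 fold change -0.77, SE 0.14, adjusted p = 0.000929 by limma), and its JIB-04 libraries were spread but all below vehicle. Its antisense gene RAB11B-AS1 had 5.81 ± 1.55 FPKM with JIB-04 and 4.75 ± 0.611 FPKM with vehicle (SD, n = 4 each), with overlap. RAB4A and RAB15, both of recycling, fell with log2 fold changes of -0.49 and -0.47, and RAB5B fell with one of -0.20.

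Sequence around the start of transcription was read from RefSeq (GRCh38.p14, from 250 bases before to 50 bases after the start) for the 49 RAB genes that had an entry of full length, of which 18 rose, 13 fell, 8 did not pass and 10 were under the expression minimum. Both strands were searched for CACGTG, the E-box bound by TFEB and its relatives, for its longer form TCACGTGA, for ACGTG, the core of the hypoxia response element, and for TGANTCA, the AP-1 site, and TCACGTGA holds CACGTG, which holds ACGTG. The E-box CACGTG was present in 6 of the 49, against 7.43% of 27305 promoters of this length. It stood in RAB5A, RAB21, RAB29 and RAB31, which rose, and in RAB24 and RAB4A, which fell. TCACGTGA was present in 2 of the 49, RAB5A and RAB21, against 1.04% of all promoters. ACGTG was present in 15 of the 49 (21.6% of all promoters), and TGANTCA in 3 (7.76% of all promoters), RAB34, RAB3B and RAB5B, which all fell, RAB5B with a call that was lost under TPM. A match of letters is not a binding site, and no binding was measured. The windows of the pair with the longer motif are shown with those of RAB24 and RAB4A, which hold the shorter form and fell, and with that of RAB7A, which rose and holds neither. The motif is in capitals, and each window reads 5′ to 3′ along the gene.
RAB5A (chr3:19946847-19947146, plus strand): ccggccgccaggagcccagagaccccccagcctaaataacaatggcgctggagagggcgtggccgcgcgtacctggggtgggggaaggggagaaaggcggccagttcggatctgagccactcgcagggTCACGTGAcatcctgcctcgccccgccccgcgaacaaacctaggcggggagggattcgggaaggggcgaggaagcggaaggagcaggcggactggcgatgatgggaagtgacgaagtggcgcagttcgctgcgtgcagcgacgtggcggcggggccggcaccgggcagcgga
RAB21 (chr12:71754613-71754912, plus strand): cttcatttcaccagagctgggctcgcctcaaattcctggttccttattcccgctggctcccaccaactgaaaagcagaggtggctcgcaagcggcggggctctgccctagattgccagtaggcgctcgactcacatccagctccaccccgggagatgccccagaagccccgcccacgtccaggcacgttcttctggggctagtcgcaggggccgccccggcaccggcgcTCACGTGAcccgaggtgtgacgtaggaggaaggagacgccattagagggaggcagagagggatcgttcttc
RAB24 (chr5:177303670-177303969, minus strand): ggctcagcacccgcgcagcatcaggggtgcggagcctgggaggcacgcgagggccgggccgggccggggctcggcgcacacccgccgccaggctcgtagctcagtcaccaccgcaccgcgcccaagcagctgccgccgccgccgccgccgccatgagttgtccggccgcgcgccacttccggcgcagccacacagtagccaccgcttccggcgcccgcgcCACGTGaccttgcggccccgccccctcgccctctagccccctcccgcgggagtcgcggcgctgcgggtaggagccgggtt
RAB4A (chr1:229270861-229271160, plus strand): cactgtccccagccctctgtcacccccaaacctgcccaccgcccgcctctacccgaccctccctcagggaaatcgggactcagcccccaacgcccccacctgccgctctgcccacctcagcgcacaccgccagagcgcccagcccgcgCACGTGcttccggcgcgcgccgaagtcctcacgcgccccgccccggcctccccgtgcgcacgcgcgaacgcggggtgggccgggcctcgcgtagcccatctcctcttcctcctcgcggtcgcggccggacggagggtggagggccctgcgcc
RAB7A (chr3:128725933-128726232, plus strand): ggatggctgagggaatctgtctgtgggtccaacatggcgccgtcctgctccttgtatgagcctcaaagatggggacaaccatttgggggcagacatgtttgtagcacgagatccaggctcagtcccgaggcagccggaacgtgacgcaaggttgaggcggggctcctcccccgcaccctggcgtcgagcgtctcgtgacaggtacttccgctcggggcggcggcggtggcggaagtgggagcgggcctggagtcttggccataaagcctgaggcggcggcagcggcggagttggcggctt
Counted from the start of transcription, the first base of CACGTG was at -121 in RAB5A, -20 in RAB21, -30 in RAB24 and -102 in RAB4A.

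Among 21 tested secretory RABs, 10 rose, 7 fell and 4 did not pass, with a median log2 fold change of 0.27. Those that fell include RAB1C, a processed pseudogene whose level is uncertain. RAB33A, among those that fell, passed the minimum only through its vehicle level. Of the other 20, 10 rose and 6 fell, with a median of 0.29. Of all genes at the minimum in both groups, 32.9% were higher and 38.9% lower. Under TPM 13 of the 21 rose, 6 fell and 2 did not pass, against 40.4% higher and 31.1% lower of all genes tested. RAB30 (ENSG00000137502, chr11:82973133-83071923), a RAB of the Golgi, changed most among them, with 66.6, 62.4, 65.5 and 66.3 FPKM with JIB-04, against 12.4, 10.7, 13.6 and 14.1 FPKM with vehicle (log2 fold change 2.32, SE 0.084, adjusted p = 2.26e-08 by limma). The JIB-04 libraries were within 5 FPKM of each other and more than 4-fold above every vehicle library. RAB30-AS1, the antisense gene at this locus, had 15.9 ± 0.927 FPKM with JIB-04 and 19.7 ± 1.31 FPKM with vehicle (SD, n = 4 each) and fell (log2 fold change -0.30, SE 0.071, adjusted p = 0.00367 by limma), though it was not called under TPM (adjusted p = 0.1). The libraries kept strand, but whether the counting used it is not stated in these sources. RAB33B (ENSG00000172007, chr4:139453232-139476609), which acts at the Golgi and binds the autophagy protein ATG16L1, had 8.69, 8.76, 8.73 and 8.92 FPKM with JIB-04, against 3.60, 3.06, 3.89 and 4.13 FPKM with vehicle (log2 fold change 1.16, SE 0.097, adjusted p = 4.09e-06 by limma). The 4 JIB-04 libraries were nearly equal and lay above all vehicle libraries.

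The secretory RABs at the highest level changed less. RAB13, which carries proteins to cell junctions, had 240.2, 225, 213 and 227 FPKM with JIB-04, against 184, 190.4, 189 and 188 FPKM with vehicle (log2 fold change 0.27, SE 0.042, adjusted p = 0.00031 by limma). RAB2A, of transport between the endoplasmic reticulum and the Golgi, had 215, 208, 221 and 211 FPKM with JIB-04, against 117, 135, 131 and 143 FPKM with vehicle (log2 fold change 0.70, SE 0.061, adjusted p = 5.14e-06 by limma). Both were higher in each JIB-04 library than in any vehicle library. RAB2B rose as well, at 0.86, as did RAB18, of the endoplasmic reticulum and lipid droplets, at 0.38, and RAB6A, of traffic within and from the Golgi, at 0.31. RAB43 had 2.62 ± 0.956 FPKM with JIB-04 and 1.52 ± 0.389 FPKM with vehicle (SD, n = 4 each), with overlap (log2 fold change 0.59, SE 0.24, adjusted p = 0.0472 by limma), and its call was lost in 8 of the 15 alternatives.

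RAB3D and RAB33A fell at least 2-fold. RAB3D (ENSG00000105514, chr19:11322046-11346270), which acts in regulated secretion, had 3.38, 2.23, 2.04 and 2.45 FPKM with JIB-04, against 9.37, 7.99, 8.51 and 8.76 FPKM with vehicle (log2 fold change -1.62, SE 0.14, adjusted p = 4.61e-06 by limma). RAB33A (ENSG00000134594, chrX:130171649-130184870), a relative of RAB33B, had 0.628, 0.519, 0.581 and 0.390 FPKM with JIB-04, against 2.13, 2.22, 2.02 and 2.33 FPKM with vehicle (log2 fold change -1.38, SE 0.14, adjusted p = 1.55e-05 by limma). Neither had an overlap between groups, and RAB33A was under 1 FPKM in every JIB-04 library. RAB3B, of regulated secretion as well, fell with a log2 fold change of -0.42, while RAB3A did not pass (-0.35, adjusted p = 0.0719 by limma). RAB10, of transport to the plasma membrane, had a log2 fold change of -0.28, with overlap between the groups, and its call was lost under TPM (adjusted p = 0.159). RAB27A, RAB6C and RAB36 were at 0.55, 0.21 and 0.20, did not pass, and passed as higher under TPM.

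**Figure D3:**
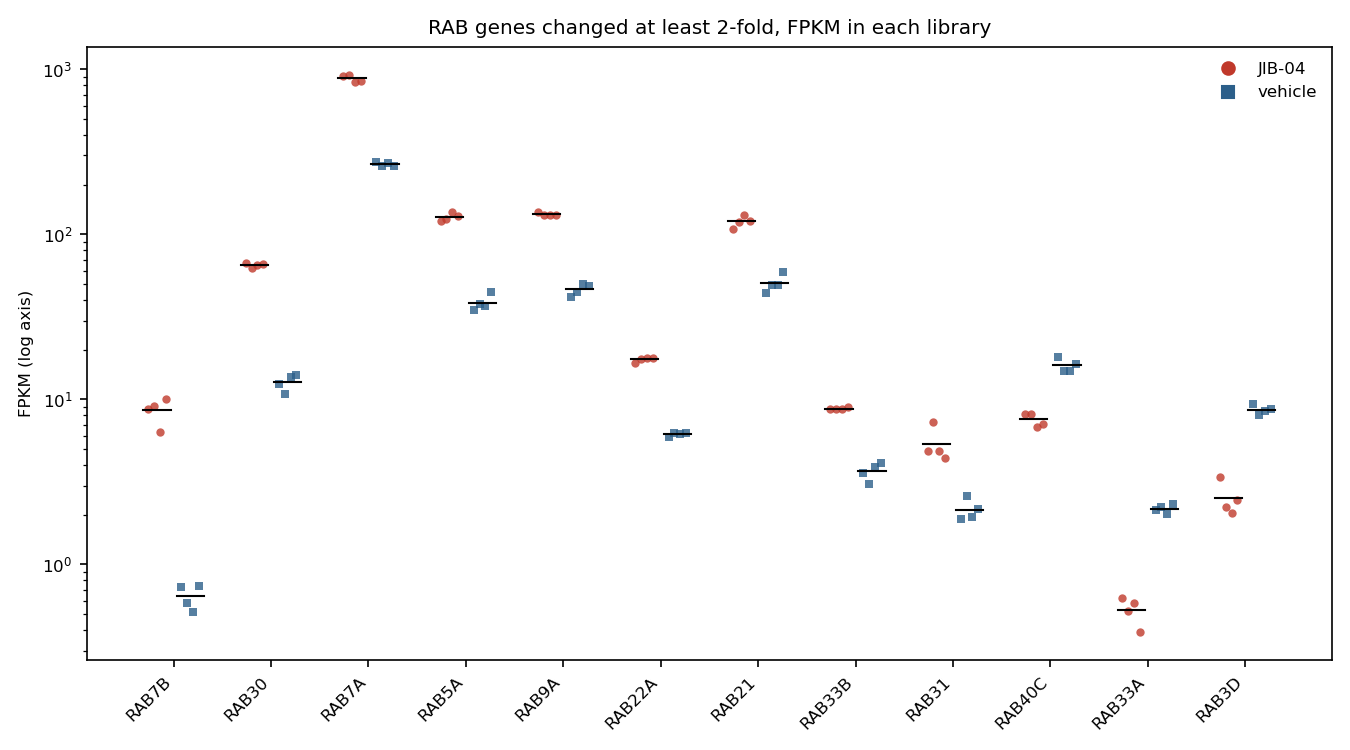
FPKM in each library (vertical log axis) of the 12 RAB genes changed at least 2-fold, JIB-04 as red circles on the left and vehicle as blue squares on the right of each gene, with black lines at the means, ordered by log2 fold change. RAB7B stood at 8.57 FPKM with JIB-04 and 0.641 FPKM with vehicle at one end and RAB3D at 2.52 FPKM and 8.66 FPKM in the same order at the other, with no overlap in any of the 12. RAB7B passed the expression minimum only through its JIB-04 level, and RAB33A only through its vehicle level.

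RABs that share a number are close relatives, and in 4 of the 11 numbers with at least 2 tested members, genes were called in opposite directions. For RAB33 this rests on RAB33A, which passed the expression minimum only through its vehicle level. For RAB5 it rests on RAB5B, whose call was lost under TPM. Of all genes tested, 34.2% were higher and 38.0% lower, and how often relatives split in other gene families was not tested. Among RAB1 genes, RAB1A had 149, 160.4, 192 and 182 FPKM with JIB-04, against 121, 113, 114 and 124 FPKM with vehicle (log2 fold change 0.53, SE 0.079, adjusted p = 0.000227 by limma). RAB1B, whose protein has the same role between the endoplasmic reticulum and the Golgi, had 138, 147, 127 and 136 FPKM with JIB-04, against 209, 203, 197 and 196 FPKM with vehicle (log2 fold change -0.55, SE 0.050, adjusted p = 6.67e-06 by limma). The groups of neither gene overlapped. By FPKM, RAB1A was above RAB1B in every JIB-04 library and below it in every vehicle library. RAB1C had 58.4, 57.6, 50.3 and 53.0 FPKM with JIB-04, against 92.3, 83.9, 82.5 and 79.2 FPKM with vehicle (log2 fold change -0.62, SE 0.066, adjusted p = 2.29e-05 by limma), below vehicle throughout like RAB1B.

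RAB1C (chr9:37636688-37637293, minus strand, GRCh38) is annotated as a processed pseudogene. Its 606 bases aligned to the RAB1B transcript without a gap and were identical at 587 of them (96.9%). The first 60 bases of the copy are shown with the matching stretch of RAB1B to give an idea of how close the copy is. Both were read from the GENCODE transcripts, and capitals mark the 2 positions that differ.
RAB1C: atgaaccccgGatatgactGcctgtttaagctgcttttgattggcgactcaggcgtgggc
RAB1B: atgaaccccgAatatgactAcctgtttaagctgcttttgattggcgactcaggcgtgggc
Of the 50-base stretches of RAB1C, 15.6% also occur in another gene, RAB1B the most often, and 0% of stretches as long as the reads named in the labels do. Reads of either gene from a stretch like the one shown differ at few positions, so the level of RAB1C is given as uncertain. The sources used here do not say how reads that match more than 1 gene were treated.

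Among RAB5 genes, RAB5A and RAB5C rose, with the values given above, while RAB5B had 61.5, 59.2, 59.6 and 65.3 FPKM with JIB-04, against 75.1, 73.5, 67.1 and 66.1 FPKM with vehicle (log2 fold change -0.20, SE 0.058, adjusted p = 0.0124 by limma). The groups of RAB5B did not overlap, but they lay within 1 FPKM of each other at their nearest, and the call was lost under TPM (log2 fold change -0.033, adjusted p = 0.618) and with median-ratio scaling (-0.14, adjusted p = 0.0569). RAB8B, of transport to the plasma membrane, had 10.9, 12.5, 11.8 and 10.1 FPKM with JIB-04, against 6.63, 6.67, 6.05 and 7.83 FPKM with vehicle (log2 fold change 0.70, SE 0.099, adjusted p = 0.000164 by limma). RAB8A, its more abundant relative, had 80.4, 82.6, 82.9 and 79.3 FPKM with JIB-04, against 95.1, 110.2, 113 and 113 FPKM with vehicle (log2 fold change -0.40, SE 0.061, adjusted p = 0.000234 by limma). Both pairs of groups were apart, with vehicle replicate 1 of RAB8A below the other vehicle libraries. RAB33B and RAB33A made up the last split number. By contrast RAB7A with RAB7B and RAB2A with RAB2B rose together, and RAB3B with RAB3D fell together. RAB7B passed the minimum only through its JIB-04 level.

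**Figure D4:**
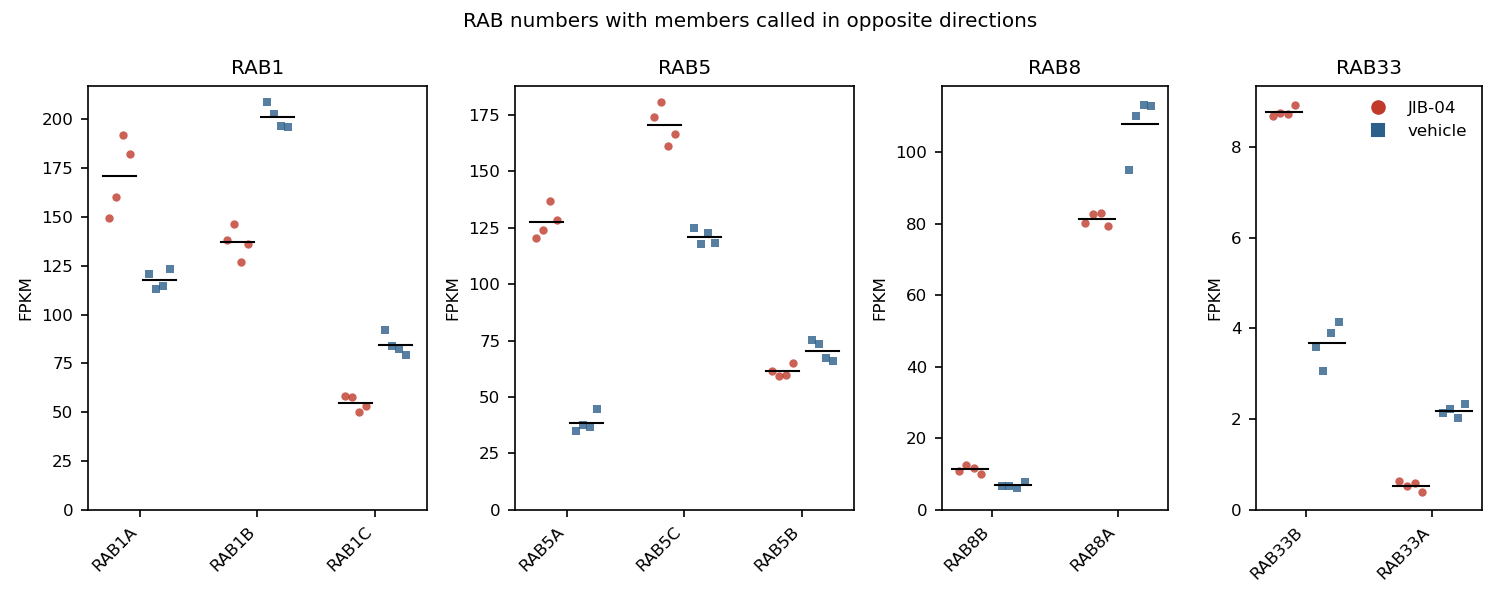
FPKM in each library (vertical axes from 0) for the 4 RAB numbers with members called in opposite directions, JIB-04 as red circles on the left and vehicle as blue squares on the right of each gene, with black lines at the means. RAB1A averaged 171 FPKM with JIB-04 and 118 FPKM with vehicle, and RAB1B 137 FPKM and 201 FPKM in the same order.

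Of the 7 RABs outside these routes, 4 were tested. RAB40C (ENSG00000197562, chr16:589357-629272), which acts in a ubiquitin ligase complex, had 8.14, 8.16, 6.75 and 7.12 FPKM with JIB-04, against 18.1, 14.9, 14.9 and 16.4 FPKM with vehicle (log2 fold change -1.04, SE 0.093, adjusted p = 6.73e-06 by limma), without overlap, and the ratio of its means was 0.470. Its log2 fold change was under 1 in size under TPM (-0.87), with median-ratio scaling, with a pseudocount of 1 and without JIB-04 replicate 3 or vehicle replicate 1, and it remained called in all of these. RAB23, a regulator of Hedgehog signalling and cilia, had 14.9, 14.3, 20.5 and 18.1 FPKM with JIB-04, against 12.6, 12.6, 12.4 and 14.2 FPKM with vehicle (log2 fold change 0.36, SE 0.11, adjusted p = 0.0181 by limma). The lowest JIB-04 library lay just above the highest vehicle library, and the call was lost with no expression minimum (adjusted p = 0.0875), in an analysis of variance of each gene (adjusted p = 0.0541) and without JIB-04 replicate 4 (adjusted p = 0.0521). RAB28 had 15.1, 12.9, 12.8 and 13.9 FPKM with JIB-04, against 13.9, 14.2, 13.7 and 15.5 FPKM with vehicle (log2 fold change -0.067, SE 0.075, adjusted p = 0.443 by limma), with overlap, and its log2 fold change was 0.091 under TPM. RAB40B did not pass (-0.35).

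The 14 RAB genes under the expression minimum included RAB19 and RAB41, listed at 0 in every library. The JIB-04 and vehicle libraries did not overlap for 8 of the 14 (12 above 0), against 18.7% of the 17323 genes under the minimum and above 0 in at least 1 library. The median level was 0.530 FPKM over the 12 RABs and 0.0851 FPKM over the 17323 genes, so these shares are not at matched levels. In a range chosen after the values were seen, from a mean of 0.5 FPKM to the minimum, 5 of 7 RAB genes did not overlap, against 39.4% of 2397 genes. RAB17, an endosomal RAB of epithelial cells, had 1.02, 1.10, 1.12 and 1.04 FPKM with JIB-04, against 0.332, 0.387, 0.0601 and 0.203 FPKM with vehicle. RAB40A had 1.17, 1.18, 0.732 and 1.12 FPKM with JIB-04, against 0, 0.0449, 0 and 0.0854 FPKM with vehicle, and RAB39B had 1.05, 1.44, 1.12 and 1.09 FPKM with JIB-04, against 0.473, 0.498, 0.522 and 0.562 FPKM with vehicle. These 3 were higher in every JIB-04 library. RAB42, RAB25 and RAB26 were lower in every JIB-04 library, with RAB42 at 0.224, 0.157, 0.146 and 0.0649 FPKM with JIB-04, against 0.973, 0.870, 1.12 and 1.11 FPKM with vehicle. RAB26 was listed at 0 in 3 JIB-04 libraries, at 0.0931 FPKM in the other, and at 0.446 to 0.703 FPKM in the vehicle libraries. In a fit with no expression minimum, RAB17, RAB39B, RAB40A and RAB44 passed as higher and RAB25, RAB26 and RAB42 as lower, against 10.0% higher and 3.16% lower (13.2% in all) of the same 17323 genes. These shares are not at matched levels either. From a mean of 0.5 FPKM to the minimum, 5 of 7 RAB genes passed in that fit, against 32.7% of 2397 genes. RAB44 reached at most 0.0280 FPKM in any library. RAB6B, RAB27B, RAB37, RAB3C and RAB9B did not pass there.

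Reads shared with other genes could move some of these values. The share of 50-base stretches of the longest transcript that also occur in another gene was 0% in 22 of the 49 tested RAB genes, under 5% in 39 and over 20% in 8. At the longer read length that the labels name, it was 0% in 39, under 5% in 42 and over 20% in 6, with RAB6A at 0.741% and RAB4A at 17.7% no longer among them. At 50 bases, the 8 were RAB43 (90.9%, with the read-through gene ISY1-RAB43), RAB4B (66.0%, with RAB4B-EGLN2), RAB24 (60.3%, with MXD3), RAB6C (55.8%, with RAB6A), RAB13 (38.3%), RAB5C (36.2%), RAB6A (21.6%) and RAB4A (20.5%, with SPHAR). Of these, none is among the 12 genes changed at least 2-fold. ISY1-RAB43 had 5.47 ± 0.518 FPKM with JIB-04 and 2.50 ± 0.103 FPKM with vehicle (SD, n = 4 each) and rose (log2 fold change 0.99, SE 0.098, adjusted p = 1.33e-05 by limma).

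The genes that load, switch and read RABs moved in both directions as well, as did all genes tested (34.2% higher and 38.0% lower). Of 7 genes for prenylation and membrane delivery, 3 rose, 2 fell and 2 did not pass. CHM, an escort protein that presents new RABs for prenylation, had 24.5, 19.4, 27.7 and 22.2 FPKM with JIB-04, against 6.33, 5.81, 5.63 and 7.29 FPKM with vehicle (log2 fold change 1.82, SE 0.12, adjusted p = 8.78e-07 by limma). RABGGTB, the catalytic subunit of the RAB prenyltransferase, had 293, 289, 324 and 312 FPKM with JIB-04, against 164, 168, 173 and 193 FPKM with vehicle (log2 fold change 0.80, SE 0.061, adjusted p = 2.07e-06 by limma). Both were above vehicle in every JIB-04 library. RABGGTA, the other subunit of that enzyme, fell with a log2 fold change of -0.42, and so did RABIF, a RAB chaperone, with one of -0.55.

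Of 46 tested exchange factor genes, 15 rose (34.2% of all genes tested), 17 fell (38.0%) and 14 did not pass (median log2 fold change 0.014). Subunits of TRAPP, the complexes that activate RAB1 and RAB11, went opposite ways, with TRAPPC8 at 1.82 and TRAPPC6B at 1.49, and TRAPPC9 at -1.63. Of 35 tested TBC and RAB3GAP genes, 14 rose (34.2% of all genes tested), 14 fell (38.0%) and 7 did not pass (median 0.12). TBC1D2, which switches off RAB7, had 5.19 ± 0.491 FPKM with JIB-04 and 1.60 ± 0.185 FPKM with vehicle (SD, n = 4 each; log2 fold change 1.44, SE 0.12, adjusted p = 3.22e-06 by limma). TBC1D5, another protein that acts on RAB7, had 10.5 ± 0.598 FPKM with JIB-04 and 26.1 ± 0.848 FPKM with vehicle (SD, n = 4 each; log2 fold change -1.28, SE 0.062, adjusted p = 1.22e-07 by limma). The pair thus moved apart, TBC1D2 up and TBC1D5 down. TBC1D23, which links endosome-derived vesicles to golgins, was at 1.68 and RAB3GAP2, which with RAB3GAP1 activates RAB18, at 1.41.

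Of 22 endosomal effector genes, 11 rose (34.2% of all genes tested), 5 fell (38.0%) and 6 did not pass (median 0.10). PIK3C3, the lipid kinase that makes the phosphoinositide of early endosomes and is bound by RAB5, had 241, 223, 256 and 259 FPKM with JIB-04, against 47.4, 63.8, 51.6 and 61.7 FPKM with vehicle (log2 fold change 2.12, SE 0.098, adjusted p = 9.3e-08 by limma). EEA1, the tether that RAB5 recruits, had 37.2, 35.6, 35.8 and 35.1 FPKM with JIB-04, against 8.71, 8.25, 7.91 and 13.1 FPKM with vehicle (log2 fold change 1.89, SE 0.14, adjusted p = 1.81e-06 by limma). Both were more than 2-fold above vehicle in every JIB-04 library, as RAB5A was. They were named for the size of their change, and other genes of the list did not all follow. RABEP1, PIK3R4 and RBSN rose by less (0.77, 0.73 and 0.35). APPL1 fell (-0.56), and APPL2, ANKFY1 and RABEP2 did not pass. VPS8, a subunit of the CORVET tether of early endosomes, was at 1.52, and RAB11FIP4, an effector of RAB11, at 0.98.

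Of 20 tested lysosomal effector genes, 10 rose (34.2% of all genes tested), 7 fell (38.0%) and 3 did not pass (median 0.11). PLEKHM1, which joins RAB7 to the HOPS tether, had 28.6, 33.9, 26.0 and 23.8 FPKM with JIB-04, against 8.03, 6.57, 6.04 and 5.56 FPKM with vehicle (log2 fold change 2.02, SE 0.13, adjusted p = 8.87e-07 by limma). With it rose UVRAG, which binds both PIK3C3 and HOPS, at 1.87. The 6 subunits of HOPS, the complex that RAB7 uses to fuse late endosomes with lysosomes, were then read together, a choice made after their values were seen. VPS11, VPS41 and VPS18 rose, with log2 fold changes of 1.91, 1.39 and 1.13, VPS33A and VPS16 fell, with -0.43 and -0.61, and VPS39 was at -0.025 and did not pass. Of 24 tested secretory effector genes, 13 rose (34.2% of all genes tested), 9 fell (38.0%) and 2 did not pass (median 0.37). MYO5B, among those that rose, and SYTL4, among those that fell, passed the minimum through 1 group only. Without them 12 rose and 8 fell, against 32.9% higher and 38.9% lower of all genes at the minimum in both groups. GOLGA4 and GOLGB1, long golgins that capture vesicles, were at 1.98 and 1.81, and MICALL2, an effector of RAB13, at 1.89. SYTL5, an effector of RAB27, had 9.23, 9.27, 10.3 and 9.69 FPKM with JIB-04, against 31.2, 34.5, 34.8 and 38.5 FPKM with vehicle (log2 fold change -1.80, SE 0.075, adjusted p = 5.1e-08 by limma), below vehicle in every JIB-04 library.

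The ARF, ARL and SAR GTPases are other small GTPases of membrane traffic. Of their 22 genes, 12 rose (34.2% of all genes tested), 7 fell (38.0%) and 3 did not pass (median 0.21). TRIM23, a ubiquitin ligase with an ARF domain, had 22.3, 22.2, 23.6 and 21.9 FPKM with JIB-04, against 6.32, 7.11, 7.26 and 9.85 FPKM with vehicle (log2 fold change 1.52, SE 0.12, adjusted p = 2.7e-06 by limma), without overlap. Among genes at the minimum in both groups, the shares that rose were 7 of 14 for endosomal, 5 of 8 for lysosomal and 10 of 20 for secretory RABs, and the medians were 0.24, 0.42 and 0.29, against 32.9% and -0.084 over all such genes. These differences between the classes were not tested.

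**Figure D5:**
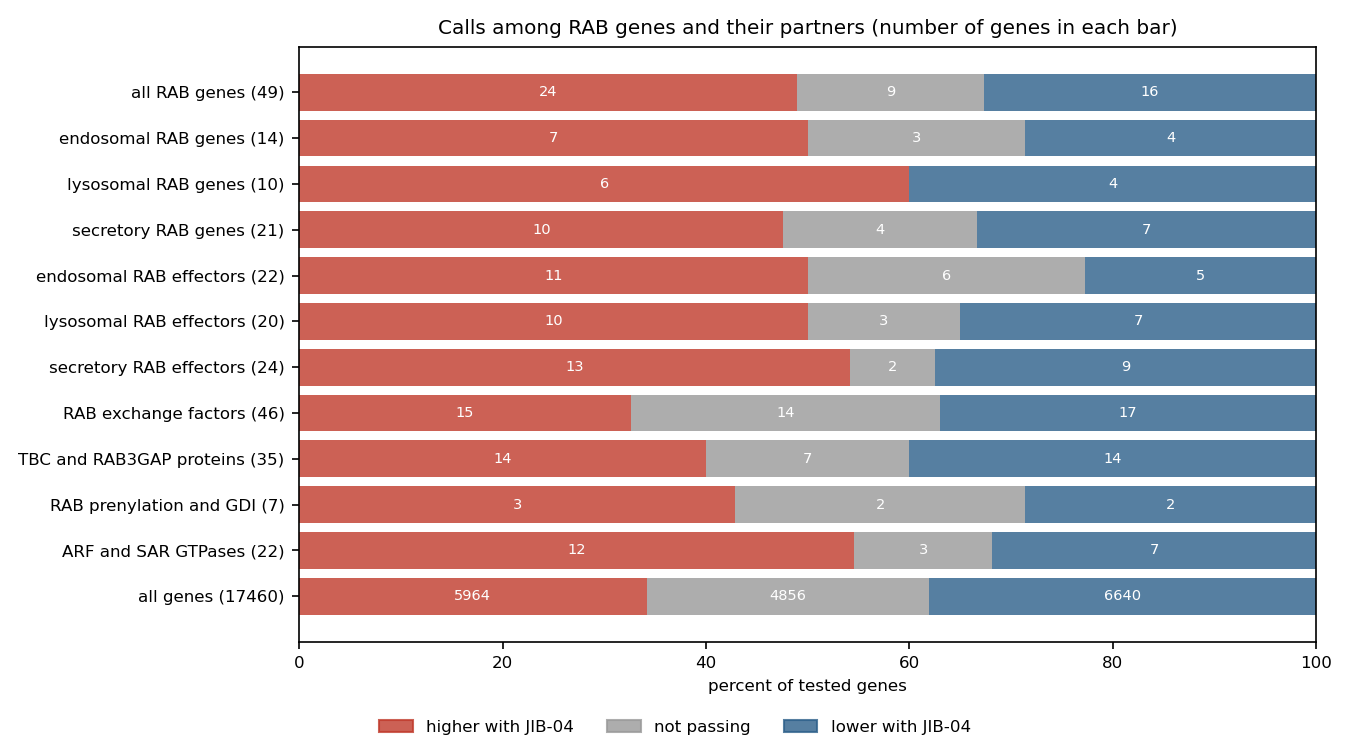
Percent of tested genes (horizontal axis) called higher (red), not passing (grey) or lower (blue) with JIB-04 in the RAB classes, their partner lists and all genes tested, with the number of genes in each bar and the number tested beside each name. Each list held genes in both directions, from 15 higher and 17 lower of 46 exchange factors to 13 higher and 9 lower of 24 secretory effectors, beside 5964 higher and 6640 lower of 17460 genes in all.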

How the data were processed

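Directional mRNA libraries of A673 cells, 4 with JIB-04 and 4 with vehicle, were sequenced with single-end reads. Reads were mapped by the authors to GRCh38 with GSNAP, followed by SAMtools, and the FPKM of each gene, from Cufflinks, were deposited and used without further normalization. The table held 66095 entries for 65975 identifiers. Entries of the 117 identifiers listed more than once were summed, and 13 genes with a placeholder in place of a value were left out, none of them a RAB gene. The labels give reads of 151 bases and the methods 50 cycles, and shared stretches were counted at both lengths.

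Genes that averaged at least 1 FPKM were tested with limma 3.58.1 (lmFit, eBayes with a trend; R 4.3.3) on log2(FPKM + 0.5), with Benjamini-Hochberg adjustment over all 17460 genes and a threshold of 0.05. The fit was first run on simulated data in which only a small part of the genes changed, unlike the real data. That run cannot show how well the calls made here hold. No model of counts was used, since FPKM are not counts and the depth in reads was not known. Precision was therefore taken from the spread between libraries. Values in every library are given for RAB genes changed at least 2-fold, the 3 at the highest mean in each class and those called against a relative of the same number, and up to 4 genes are named per partner list by size of change among those called. Some genes that this rule chose are not reported here. The members and lists were chosen with earlier results of these data known. Python 3.11.15 with pandas 2.3.3, numpy 2.4.6 and matplotlib 3.10.9 made the tables and plots. Alternatives were pseudocounts of 0.1 and 1, no minimum, a minimum of 5 FPKM, TPM, median-ratio scaling, an analysis of variance of each gene on FPKM, a replicate block and leaving out each library.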

Additional observations from a re-analysis of the deposited data

Results flagged for a closer look

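Each group of 4 libraries was checked, for the tested RAB genes and the named partner genes, for a library whose gap to its nearest neighbour took up more of the group's range than Dixon's 95% critical value allows. This check picked out 9 of 146 groups (6.16%), and chance alone picks out about 1 in 20. Of the 98 RAB groups it picked out 7. With JIB-04, replicate 1 was high for RAB11A (316 FPKM, the others at 298 to 301), RAB9A (137 FPKM, the others at 131 to 132) and RAB24 (16.4 FPKM, the others at 13.0 to 13.6). With vehicle, replicate 1 was high for RAB29 (11.0 FPKM, the others at 8.85 to 9.16) and low for RAB8A (95.1 FPKM, the others at 110.2 to 113), and replicate 4 was low for RAB32 (1.04 FPKM, the others at 1.59 to 1.69) and high for RAB23 (14.2 FPKM, the others at 12.4 to 12.6). Among partner genes with JIB-04, replicate 3 was low for TBC1D2 (4.45 FPKM, the others at 5.38 to 5.49) and VPS41 (103 FPKM, the others at 117 to 118).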

How the results depend on the processing

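All 12 RAB genes changed at least 2-fold kept their direction and their call in each of the 189 values computed for them. RAB7B passed the minimum only through its JIB-04 level and RAB33A only through its vehicle level, so their groups had to differ. These 2 genes and RAB31 were not tested at a minimum of 5 FPKM. RAB40C went under 2-fold in 5 alternatives and RAB31 in 1. RAB20 reached 2-fold with a pseudocount of 0.1, and RAB2B under TPM. The count of RAB genes called was 40 of 49 (72.2% of all genes tested), and 33 to 44 under the alternatives, with 33 of 37 tested at a minimum of 5 FPKM. With no minimum all 63 RAB genes were in the fit, so these counts are not out of the same number. Under TPM 29 rose and 13 fell (40.4% and 31.1% of all genes tested). For most other alternatives the share of all genes is not given, and the range is not read against it. Under TPM the median log2 fold change moved to 0.43 for all RAB genes, 0.40 for endosomal, 0.56 for lysosomal and 0.43 for secretory RAB genes and 0.081 for all genes, and with median-ratio scaling to 0.30 for endosomal RAB genes and -0.011 for all genes. With no minimum the median of all genes was 0.000, and with a minimum of 5 FPKM that of endosomal RAB genes was 0.13. The direction turned for RAB4B, to 0.14 under TPM, 0.047 with median-ratio scaling and -0.040 to 0.043 when 1 library was left out (0.016 without vehicle replicate 2, 0.043 without JIB-04 replicate 3), and for RAB28, to 0.091 under TPM, and neither gene passed the test in these settings. The numbers of the replicates did not pair the libraries (correlations of deviations for the same number of 0.082, -0.058, 0.026 and -0.002). With a replicate block RAB35 and RAB27A gained a call and RAB43 lost its call. The number of mapped reads was not known, and genes near 1 FPKM were the least certain.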
